A study of Homo sapiens with 6 samples.

Results

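The comparison described here sets si2 against si1, 2 groups of SK-MES-1 cells known by their library names. The series' design text describes a transient KRT6A knockdown and control cells, and both groups are taken here as the knockdown. SK-MES-1 is a human line from a lung squamous cell carcinoma, and KRT6A encodes a keratin of stratified epithelia. Each group holds 2 libraries, so 4 of the 6 libraries of the series enter the comparison, and the 2 libraries of the control group, NC, are shown for reference only. Genes were taken from the whole table by their level: 12326 of 58735 genes had a mean of at least 1 FPKM (fragments per kilobase of gene and sequencing depth) over the 4 libraries. All 6 libraries come from the same line, and no stable change of the genome or drug is described for any of them. The labels do not spell out si1, si2 or NC, and the sequences, doses and hours of the reagents are not given in the sources used here. Nothing says that replicates 1 and 2 were separate cultures, so the p-values may measure only technical spread.

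In a knockdown, a reagent lowers the transcript of a chosen gene, and reagents aimed at the same gene are often used in parallel so that their profiles can be set side by side. Several of the genes that come up below belong to growth factor signalling. Ligands such as epiregulin and amphiregulin bind the EGF receptor, RAS and the ERK kinases carry the signal, and ERK induces its own brakes, the dual-specificity phosphatases and Sprouty proteins, together with ETV transcription factors and cyclin D1. Cells that pass from G1 into S phase switch on the helicase and polymerase genes that copy DNA and the histone genes that package it. A later set of genes serves division. In bulk RNA, fewer cells of a kind and less RNA per cell cannot be told apart.

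The libraries held 14948607 to 17401392 reads, and 7.82% to 8.731% of them came from mitochondrially encoded genes. Markers were counted as reaching 1 FPKM by their mean over the 6 libraries. Of 6 markers of carcinoma epithelium, 5 reached 1 FPKM, and the sixth, CDH1, stayed at or below 0.256 FPKM. Their summed level was 355 to 379 FPKM in NC, 370 to 376 in si1 and 264 to 277 in si2. Of 8 markers of lung squamous carcinoma, 3 reached 1 FPKM, TP63, PKP1 and S100A2, while KRT6A and DSG3 had 0 reads in every library and KRT5 and KRT14 were at most at 0.0133 and 0.0268 FPKM. The squamous keratins among these markers were thus at or near 0, and the name SK-MES-1 rests on the design text. Of the markers of fibroblasts, endothelial cells and leukocytes, 2 of 9, 1 of 7 and 1 of 9 reached 1 FPKM. The fibroblast markers were COL1A1, at 15.2 to 22.5 FPKM over the 6 libraries, and PDGFRB, at 1.2 to 1.89. The endothelial marker was EGFL7 (2.58 to 5.74) and the leukocyte marker CD14 (0.698 to 1.65). COL1A2, CDH5, CLDN5, CD3E and MS4A1 were at 0 in all libraries. No marker of alveolar and airway secretory cells (0 of 8) or of neuroendocrine cells (0 of 6) reached 1 FPKM by this mean. Single libraries could pass 1 FPKM, with FOXJ1, of the airway markers, at 1.59 in si1 replicate 2. SOX2, of the squamous markers, was at 1.03 in si2 replicate 1.

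KRT6A (ENSG00000205420, chr12:52487174-52493257, hg38) could not be compared between the 2 groups. No library, NC included, held a read of it; a count of 0 allows (3 reads of the library) up to 0.0627 and 0.0605 FPKM in si1, up to 0.0649 and 0.0678 in si2, and up to 0.0613 and 0.0583 in NC. The limits cover counting error only. The targeted gene therefore checks neither label, and it gives no measure of which group was lowered more. RAB39B (ENSG00000155961, chrX:155258241-155264589), a Rab GTPase named in the series title, was at 0.838 and 0.573 FPKM in si1, 1.3 and 0.755 in si2, and 1.9 and 2.63 in NC. The si1 and si2 libraries overlapped. Its mean over the 4 libraries was under 1 FPKM, so it was not among the genes tested, and in a fit of all genes the difference was 0.24 log2 units (SE 0.208, limma adjusted p = 0.562).

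Across the genes tested, si2 differed from si1 in about equal numbers in each direction. Values were compared as log2(FPKM + 1), a scale that understates the change of low genes, with limma, and a gene is said to be called at a Benjamini-Hochberg adjusted p under 0.05. By this rule 4102 of 12326 genes were called (33.3%), 2116 of them higher in si2 (17.2%) and 1986 lower (16.1%). At least 2-fold differences were called in 211 genes higher in si2 (1.71%) and in 207 genes lower (1.68%). Both si2 libraries lay on the same side of both si1 libraries in 8633 genes (70.0%). Without a filter on low values 1696 of 27800 genes were called. Without replicate 1 of si2 the number of called genes was 2316, and without replicate 2 of si2 it was 2558. Correlations across genes, which are not independent replicates, were 0.9818 to 0.9884 within a group and 0.9457 to 0.951 between si1 and si2 libraries. They were 0.9646 to 0.9683 between NC and si1 and 0.9602 to 0.9631 between NC and si2, so each group lay closer to NC than to the other group.

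**Figure D1:**
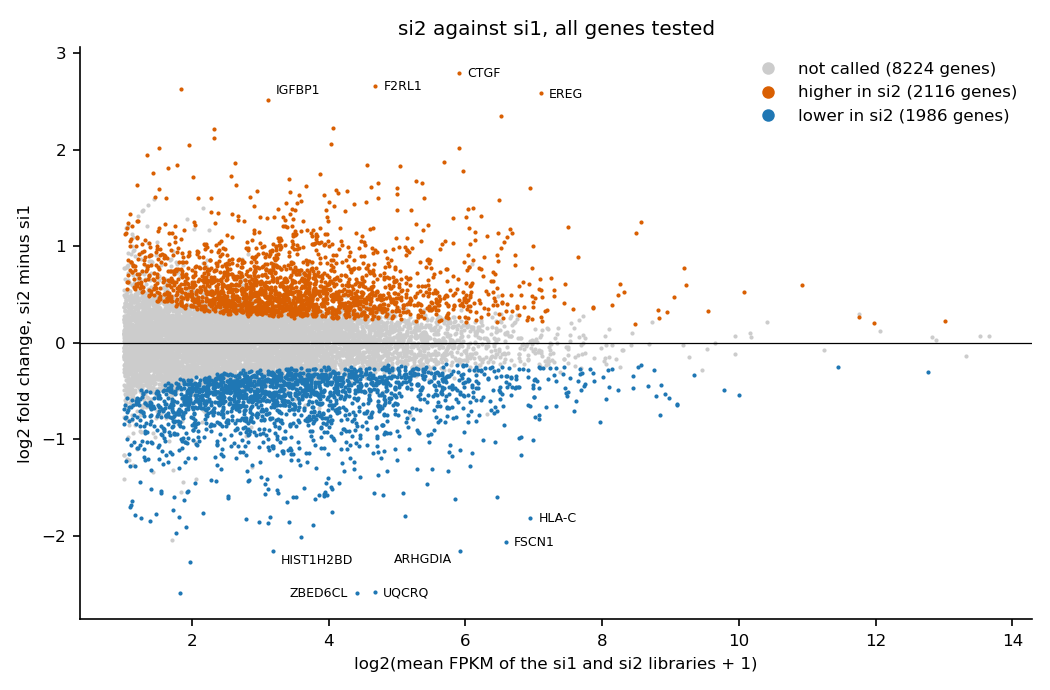
Log2 fold change of si2 minus si1 (vertical) against the mean level of each of the 12326 genes tested, as log2(mean FPKM + 1). Orange points are the 2116 genes called higher in si2 and blue points the 1986 called lower; the named genes lie between CTGF at 2.80 and ZBED6CL at −2.60.

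Among the called genes, NC usually lay between the 2 groups. Of the 4102 called genes, the NC mean was between the si1 and si2 means in 2816 (68.6%), above both in 771 (18.8%) and below both in 515 (12.6%). Called genes were chosen for a gap between si1 and si2, which by itself favours such a place for NC. The share over all genes tested was not counted. Among the 418 genes called with at least a 2-fold difference, NC was between the 2 groups in 347 (83.0%). For the 211 of these that were higher in si2, si1 was the group farther from NC in 133 (63.0%). For the 207 that were lower in si2, si2 was the farther in 142 (68.6%). By biotype, 35.2% of 10738 protein-coding genes were called, against 23.7% of 300 long intergenic RNAs, 22.3% of 381 processed pseudogenes and 15.9% of 315 antisense genes. The median level was 7.38 FPKM for the protein-coding genes and 2.04, 2.88 and 1.66 FPKM for the other 3 classes.

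CTGF (chr6:131948176-131951373), a secreted matricellular protein and a target of YAP, showed the largest difference of any protein-coding gene called higher in si2. It was at 13.2 and 15.1 FPKM in si1, 106 and 102 in si2, and 37.7 and 36.8 in NC. The si2 libraries were above NC and the si1 libraries below it, with no overlap (2.80 log2 units, SE 0.087, limma adjusted p = 1.05e-04). F2RL1 (chr5:76818933-76835315), the protease-activated receptor PAR2, was at 5.996 and 6.01 FPKM in si1, 45.1 and 41.6 in si2, and 27.3 and 25.4 in NC (2.66, SE 0.0807). EREG (chr4:74365143-74388751), which encodes epiregulin, was at 36.6 and 39.96 FPKM in si1, 238 and 231 in si2, and 97.5 and 94.8 in NC (2.58, SE 0.0721). All 3 genes were arranged in the same way, lowest in si1 and highest in si2.

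The other 11 of the 14 highest genes included secreted proteins of growth control and inflammation. IGFBP1, which binds insulin-like growth factors, was 2.51 log2 units higher in si2, PTX3, a pentraxin of innate immunity, 2.23, and IL1A, the interleukin 1 alpha gene, 1.84. SERPINB2 (2.06), PLAU (1.78), AREG (1.87) and ETV4 (1.87) belong to lists described below. TMEM244, a membrane protein, was at 0.639 and 0.353 FPKM in si1 and 4.35 and 4.34 in si2 (1.84, SE 0.151). CALM3, 1 of 3 calmodulin genes, was at 15.4 and 11.8 FPKM in si1, 50.7 and 50.6 in si2, and 62.3 and 66.1 in NC (1.83, SE 0.122). CALM2, another of them, differed less (0.56). TCN1, a vitamin B12 carrier, was at 0.193 and 0.261 FPKM in si1 and 3.43 and 2.88 in si2 (1.76, SE 0.164).

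Among the 14 lowest genes, ZBED6CL (chr7:150329789-150332721) was at 36.6 and 34.1 FPKM in si1, 4.71 and 5.34 in si2, and 8.85 and 10.8 in NC (−2.60, SE 0.0915, limma adjusted p = 1.45e-04). The si1 libraries stood above NC and the si2 libraries below it. UQCRQ (chr5:132866560-132868031), a small subunit of respiratory complex III, was at 42.1 and 43.3 FPKM in si1, 6.45 and 6.11 in si2, and 41.7 and 50.1 in NC (−2.59, SE 0.0771). Here si1 lay within the NC values and si2 alone stood apart. ARHGDIA, which holds small GTPases in their inactive form (98.1 FPKM in si1 and 21.3 in si2 on average; −2.15, SE 0.0865), FSCN1, the actin-bundling protein fascin (154 and 36.1; −2.06, SE 0.0747), and HLA-C (191 and 53.5; −1.82, SE 0.0669) had mean levels in NC of 102, 142 and 176 FPKM, with si2 far below them. The si1 libraries overlapped NC for ARHGDIA and lay above both NC libraries for FSCN1 and HLA-C. LAMP1, a lysosomal membrane glycoprotein, was lower by 1.80 log2 units. The histone genes HIST1H3H (−1.97) and HIST1H2AC (−1.82), DIO2, a deiodinase that activates thyroid hormone (−1.87), and CLIC3 (−1.91) were arranged like ZBED6CL, with both si1 libraries above and both si2 libraries below the NC libraries. For 2 of them this position rests on few reads in si2, 12 and 3 for HIST1H3H and 8 and 13 for CLIC3. For the histone gene HIST1H2BD (−2.16) and for SAMD11 (−1.85), si1 was above NC and si2 overlapped it. SMIM14, a small membrane protein, was at 16.6 and 20 FPKM in si1, 3.75 in both si2 libraries and 13.5 in both NC libraries (−2.02, SE 0.107).

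**Figure D2:**
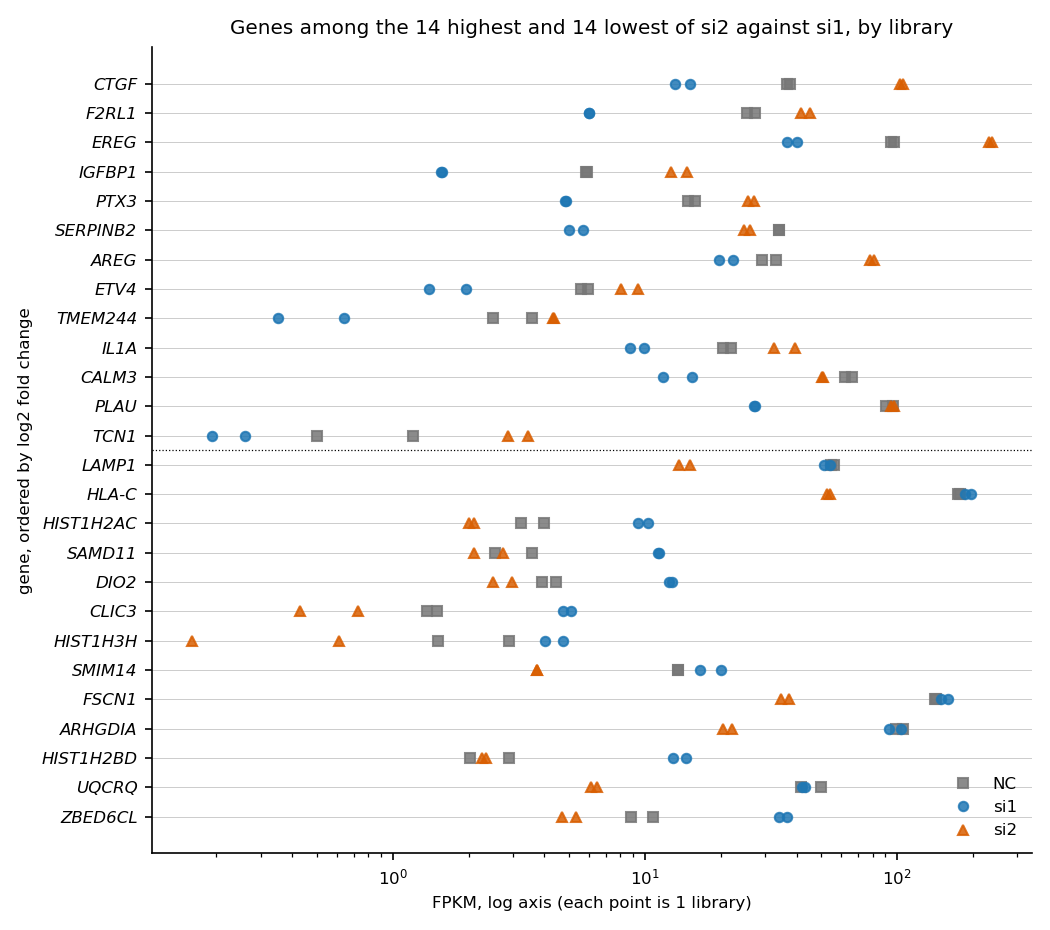
FPKM (log axis) of the genes shown from among the 14 highest and 14 lowest protein-coding genes, in each of the 6 libraries, with NC as grey squares, si1 as blue circles and si2 as orange triangles. In every row the si1 and si2 points are apart; above the dotted line si1 is the low group, and for UQCRQ, ARHGDIA, FSCN1, HLA-C and LAMP1 the si1 points lie close to the NC points.

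Gene lists were described by how many of their tested members were called, beside 17.2% higher and 16.1% lower over all genes tested, and by their median log2 fold change, which was 0.011 over all genes. The EGF receptor list held 12 tested genes of 18, of which 8 were higher in si2 and 1 was lower (median 0.58). Its ligands led. AREG, the amphiregulin gene, was at 19.7 and 22.3 FPKM in si1, 81.0 and 78.4 in si2, and 33.3 and 29.1 in NC (1.87, SE 0.084). BTC, the betacellulin gene, was at 6.89 and 6.95 FPKM in si1 and 14.8 and 14.5 in si2 (0.98), and HBEGF, the gene of heparin-binding EGF, at 1.88 and 2.17 in si1 and 3.99 and 4.47 in si2 (0.79). HBEGF stood at 7.30 and 6.91 FPKM in NC, above both groups, so the ligands did not share 1 position relative to NC. The receptor gene EGFR itself was at 26.1 and 20.8 FPKM in si1 and 37.4 and 36.2 in si2 (0.64, limma adjusted p = 0.00883), a call that was lost when low genes were kept in the fit (0.0704). ERBB2, a related receptor, was the member called lower (−0.46), and with centring by GC content 8 members were higher and 0 lower.

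The genes that ERK signalling induces were higher in si2 as well. Of 22 tested members of the MAPK feedback list, 16 were called higher and 0 lower, with a median of 0.72. ETV4, an ETS transcription factor, was at 1.39 and 1.95 FPKM in si1, 9.37 and 8.03 in si2, and 5.59 and 5.94 in NC (1.87, SE 0.138). DUSP6, the phosphatase that acts on ERK, was at 2.65 and 2.82 FPKM in si1, 9.84 and 9.52 in si2, and 6.69 and 6.54 in NC (1.52). CCND1, the cyclin D1 gene and the most abundant member, was at 115 and 103 FPKM in si1, 249.9 and 251 in si2, and 275 and 282 in NC (1.20). ETV5 (1.45), PHLDA1 (1.17) and SPRY2, a Sprouty inhibitor (1.17), had the same direction. The medians of the list were −0.74 for si1 minus NC and 0.05 for si2 minus NC, both against the same 2 NC libraries, so the si2 values sat near NC and the si1 values below it. Not every immediate target followed. MYC was at 56.1 and 49.8 FPKM in si1 and 47.0 and 44.9 in si2 and was not called (−0.20, limma adjusted p = 0.121). NRAS, named here after its values were seen, was at 19.7 and 22.4 FPKM in si1, 61.4 and 61.3 in si2, and 56.7 and 54.3 in NC (1.499).

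Of 20 tested genes of the plasminogen system and the serpins, 16 were higher in si2 and 0 lower (median 0.77), a share of 80.0%. The protease urokinase, its receptor and its inhibitor PAI-2 were all higher. PLAU, which encodes urokinase, was at 27.1 and 27.4 FPKM in si1, 97.0 and 94.9 in si2, and 90.5 and 96.1 in NC (1.78, SE 0.0665). PLAUR, its receptor, was at 5.37 and 5.42 in si1 and 16.7 and 16.6 in si2 (1.47). SERPINB2, which encodes the inhibitor PAI-2, was at 5.01 and 5.70 in si1, 26.2 and 24.6 in si2 and 33.9 and 34.0 in NC (2.06). The si2 values were near NC for PLAU and below it for SERPINB2, while for CTGF and EREG they were far above it. TFPI2, a protease inhibitor (1.58), belongs to the same list.

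Chemokines were higher in si2 in 10 of 13 tested genes and lower in 0 (median 0.63). CXCL5, a neutrophil attractant and the most abundant of them, was at 208 and 239 FPKM in si1, 546 and 523 in si2, and 232 and 227 in NC (1.26, limma adjusted p = 4.62e-04). CCL26 (1.59), CCL2 (0.99), CXCL3 (0.98), CXCL8, the interleukin 8 gene (0.85), and CXCL1 (0.80) were also higher. By the medians of this list si2 was the group away from NC, with −0.18 for si1 minus NC and 0.67 for si2 minus NC. Its members varied. The differences from NC were −0.04 in si1 and 1.21 in si2 for CXCL5, −0.72 and 0.13 for CXCL8, and 0.84 and 1.64 for CXCL1. Of 25 genes of NF-kB signalling and inflammatory cytokines, 9 were higher and 3 lower. CSF2, which encodes GM-CSF, was at 11.3 and 14.4 FPKM in si1 and 39.1 and 36.7 in si2 (1.4999), while SOD2, a mitochondrial superoxide dismutase, was at 67.7 and 78.4 in si1 and 34.9 and 33.8 in si2 (−1.06).

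Several of these genes are neighbours on chromosome 4. The stretch from CXCL8 to BTC, chr4:73740506-74794686, was singled out after the values were seen and held 11 protein-coding genes that were tested. Of these, 9 were higher in si2 and 0 lower, with a median of 0.85, beside 17.2% higher and 16.1% lower over all genes tested. From the start of the stretch to its end the 9 were CXCL8, CXCL6, CXCL1, CXCL5, CXCL3, CXCL2, EREG, AREG and BTC. The other 2, PF4 (0.19) and MTHFD2L (0.32), were not called. Both end genes of the stretch were higher in si2, and its genes overlap with those of the chemokine and EGF receptor lists. The count therefore describes the stretch and does not test it.

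Genes that copy DNA were higher in si2. Of 48 DNA replication genes, all of them tested, 32 were called higher and 1 lower (median 0.56). GINS1, a subunit of the replicative helicase, was at 5.13 and 5.03 FPKM in si1, 12.8 and 13.4 in si2, and 11.6 and 13.04 in NC (1.21, SE 0.0815, limma adjusted p = 5.09e-04). GINS2 (1.17), CDC45 (1.00) and PRIM2, a primase subunit (0.96), had the same direction, and so did CDC25A, the phosphatase that starts S phase (1.05). TK1, thymidine kinase, was the exception, at 66.4 and 71.1 in si1, 44.9 and 46.5 in si2 and 75.5 and 81.4 in NC (−0.58). Outside the list, SKP2, which directs the CDK inhibitor p27 to degradation, was at 5.45 and 5.91 FPKM in si1 and 22.5 and 20.6 in si2 (1.75).

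Of 41 tested genes of DNA double-strand break repair, 14 were higher in si2 and 3 lower (median 0.28). EXO1, an exonuclease that resects DNA ends, was at 3.99 and 3.80 FPKM in si1, 9.25 and 10.4 in si2 and 7.17 and 6.64 in NC (1.15). BRCA1 (1.02), FANCI (1.01), XRCC2 (0.76) and BARD1 (0.74) were higher too. BRCA2 was higher by 0.71, and its call was lost when low genes were kept in the fit (limma adjusted p = 0.0541).

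Genes of division did not follow replication. Of 45 mitosis and spindle genes, 11 were higher in si2 and 10 lower (median 0.14). CDK1, the mitotic kinase, was at 16.4 and 19.5 FPKM in si1 and 32.7 and 27.7 in si2 (0.72; limma adjusted p = 0.0067, and 0.0613 when low genes were kept in the fit). PLK1, the kinase of mitotic entry and spindle assembly, was at 28.5 and 24.6 in si1 and 11.1 and 10.9 in si2 (−1.20), and CDC25B (−1.14), CDC20, an activator of the anaphase-promoting complex (−0.75), and KIF4A (−0.70) were lower. The replication-dependent histones went against the replication genes. Of 11 tested members of 32, 10 were lower in si2 and 0 higher, with a median of −1.18. HIST1H2BD was at 12.99 and 14.6 FPKM in si1, 2.25 and 2.35 in si2, and 2.89 and 2.03 in NC (−2.16, SE 0.0951), and HIST1H1C, a linker histone, at 19.2 and 24.4 in si1, 7.10 and 6.18 in si2, and 11.4 and 14.2 in NC (−1.57). The histone medians were 0.73 for si1 minus NC and −0.34 for si2 minus NC. Most transcripts of this class lack a poly(A) tail, and how the libraries selected RNA is not given in the sources used here. The stretch from HIST1H1C to HIST1H3H, chr6:26055787-27811300, was also singled out after the values were seen, and both its end genes were lower in si2. In it, 9 of 11 histone genes were lower in si2, against 1 of 11 other protein-coding genes, 2 of which were higher. These histone genes overlap with those of the list, so the count describes the stretch and does not test it.

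**Figure D3:**
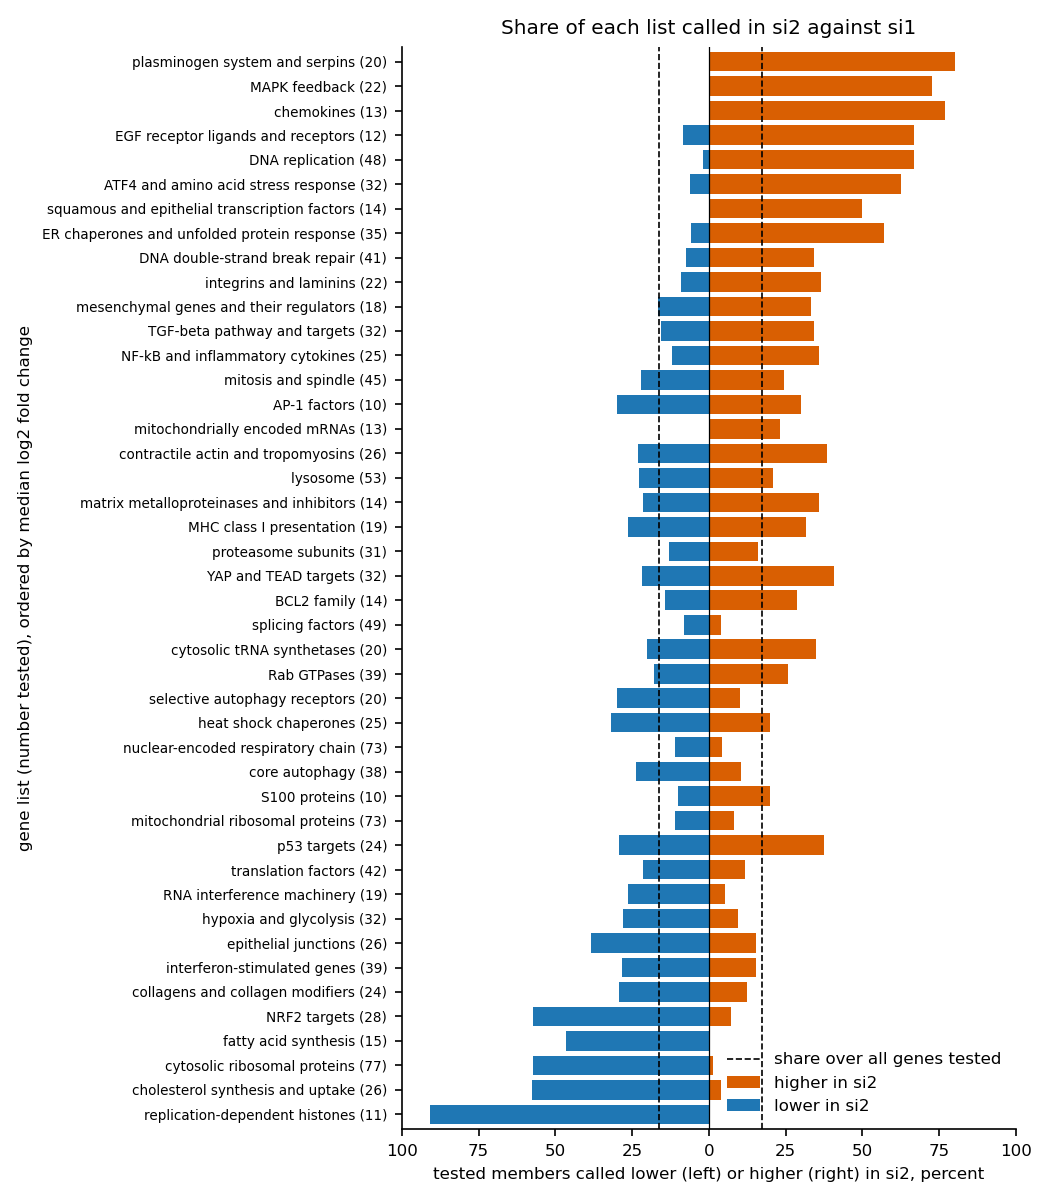
Percent of the tested members of each list called lower (blue, left) and higher (orange, right) in si2 than in si1, for the lists with at least 10 tested members, ordered by their median log2 fold change. Dashed lines are the shares over all genes tested, 16.1% lower and 17.2% higher; the plasminogen list (16 of 20 higher) and the histones (10 of 11 lower) stand at the ends.

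Many genes of amino acid metabolism and of the endoplasmic reticulum were higher in si2. Of 32 tested genes of the ATF4 and amino acid stress response, 20 were higher in si2 and 2 lower (median 0.52). SLC7A11, the cystine transporter, was at 60.1 and 61.8 FPKM in si1, 133 and 129.7 in si2, and 86.6 and 82.9 in NC (1.10, SE 0.064). SLC7A1, an arginine and lysine transporter (1.17), PSAT1, of serine synthesis (1.06), and MTHFD2 (0.97) and SHMT2 (0.96), of mitochondrial folate metabolism, were higher. PYCR1, of proline synthesis, was lower, at 37.1 and 33.0 in si1 and 14.8 and 16.1 in si2 (−1.13). Of 35 tested genes of the endoplasmic reticulum and its unfolded protein response, 20 were higher and 2 lower (median 0.33). XBP1, a transcription factor of that response, was at 24.3 and 26.6 FPKM in si1, 53.4 and 54.0 in si2, and 53.2 and 53.9 in NC (1.05), so the si2 values matched NC to within 1 FPKM. The chaperones ERP44 (0.83) and PDIA6 (0.60) were higher, and HYOU1 was lower (−0.84). Heat shock chaperones were divided, with 5 of 25 higher and 8 lower. STIP1, a co-chaperone that links HSP70 to HSP90, was at 19.9 and 17.8 FPKM in si1, 62.2 and 61.3 in si2, and 60.7 and 63.9 in NC (1.66), while HSPA1A (−0.90) and HSPB1 (−0.83) were lower in si2.

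Genes of the cell surface and matrix were divided between the groups. Integrins and laminins were higher in 8 of 22 tested genes and lower in 2. ITGA2, a collagen receptor subunit, was at 49.0 and 43.7 FPKM in si1 and 131 and 129.9 in si2 (1.48), and ITGA6, a laminin receptor subunit, at 41.0 and 43.3 in si1 and 107 and 105 in si2 (1.32), whereas LAMB2 (−1.10) and ITGB4 (−0.97) were lower. The metalloproteinase inhibitors went in opposite directions. TIMP3 was at 59.1 and 62.5 FPKM in si1, 141 and 137 in si2, and 51.2 and 54.0 in NC (1.18), and TIMP2 was at 130.2 and 133 in si1, 43.3 and 42.5 in si2, and 112 and 114 in NC (−1.59). The YAP and TEAD list, to which CTGF belongs, had 13 of 32 higher and 7 lower, with a median of 0.06. PTPN14 (1.39), TGFBR2 (1.30) and NT5E (1.14) were higher and TEAD2 (−0.89) and TEAD4 (−0.74) lower. Of 32 genes of the TGF-beta pathway, 11 were higher and 5 lower, with INHBA, an activin subunit, at 1.85 and 1.64 FPKM in si1 and 8.27 and 7.97 in si2 (1.73), and ID2 (−0.94), ID3 (−0.56) and ID1 (−0.55), targets of BMP signalling, lower. The call of ID2 was lost when low genes were kept in the fit (limma adjusted p = 0.0581).

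Epithelial genes did not move as 1 group. Of 14 tested squamous and epithelial transcription factors and Notch genes of 25, 7 were higher in si2 and 0 lower (median 0.36). TP63, the master regulator of squamous epithelia, was at 5.37 and 5.34 FPKM in si1, 12.8 and 10.9 in si2, and 5.97 and 6.25 in NC (1.01, limma adjusted p = 0.00146). JAG1, a Notch ligand, was at 7.89 and 7.96 in si1 and 25.5 and 24.7 in si2 (1.55), and HES1, a Notch target, was higher by 1.16. Of 4 tested simple keratins, 3 were lower and 0 higher, and with centring by GC content 2 were lower and 1 higher. KRT19 was at 114 and 116 FPKM in si1, 53.01 and 58.4 in si2, and 85.6 and 96.4 in NC (−1.03). KRT8 was lower by 0.53 log2 units, and KRT7 was at 149 and 142 FPKM in si1 and 111 and 112 in si2 (−0.37, limma adjusted p = 0.00748). KRT18, which was not called, was at 49.1 and 50.6 FPKM in si1 and 55.2 and 59.8 in si2 (0.20, limma adjusted p = 0.0839). The KRT7 call was lost without replicate 1 of si2 (0.0764), without replicate 2 of si2 (0.0629) and with centring by GC content (0.256). Of 26 junction genes, 10 were lower and 4 higher. GJA1, which encodes connexin 43, was at 53.7 and 55.2 FPKM in si1 and 20.5 and 22.4 in si2 (−1.30), and GJB2, which encodes connexin 26, at 6.73 and 8.47 in si1 and 24.0 and 25.4 in si2 (1.59).

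Many genes of lipid synthesis were lower in si2. Of 26 tested genes of cholesterol synthesis and uptake, 15 were lower in si2 and 1 higher (median −0.35). LSS, which closes the sterol ring, was at 38.4 and 34.8 FPKM in si1, 11.4 and 12.1 in si2 and 25.1 in both NC libraries (−1.56, SE 0.0852, limma adjusted p = 3.06e-04). DHCR7, the last step of the pathway, was at 61.2 and 55.2 in si1, 28.1 and 27.9 in si2, and 61.2 and 59.9 in NC (−1.03), and MVD (−0.88) and PMVK (−0.78), of mevalonate metabolism, were lower. HMGCS1 did not differ past the threshold, with 23.2 and 25.6 FPKM in si1 and 23.1 and 25.1 in si2 (−0.02, 95% interval −0.23 to 0.20, adjusted p = 0.893). Of 15 tested genes of fatty acid synthesis, 7 were lower and 0 higher (median −0.28), among them SCD, a desaturase at 150.4 and 139.7 FPKM in si1 and 73.8 and 71.6 in si2 (−0.99), and FADS2 (−0.89). FASN was lower by 0.69 log2 units, a call that was lost when low genes were kept in the fit (limma adjusted p = 0.054).

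Cytosolic ribosomal proteins were lower in si2 by small amounts. Of 77 tested genes, 44 were lower and 1 was higher, with a median of −0.28. RPL15 was at 58.7 and 63.1 FPKM in si1, 35.8 and 32.3 in si2, and 62.0 and 61.9 in NC (−0.82), and RPS9 at 105 and 106 in si1, 63.3 and 63.4 in si2 and 95.6 and 105 in NC (−0.73). The list medians were −0.01 for si1 minus NC and −0.32 for si2 minus NC. The mitochondrial ribosome did not share this, with 6 of 73 genes higher and 8 lower (19.2% called), and neither did the nuclear-encoded respiratory chain, with 3 of 73 higher and 8 lower (15.1%). UQCRQ was the gene of the respiratory chain list with the largest difference, and the next, COX7A2 (0.77), was higher. Among the splicing factors 2 of 49 were higher and 4 lower (12.2%), and with centring by GC content 3 were higher and 12 lower. These shares stand beside 33.3% over all genes tested, and the differences from it were not tested. Of the proteasome subunits 5 of 31 were higher and 4 lower (29%).

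NRF2 targets, which protect against oxidants, were lower in si2 in 16 of 28 tested genes and higher in 2 (median −0.28). AKR1C3, an aldo-keto reductase, was at 161 and 179 FPKM in si1, 105 and 90.9 in si2, and 83.0 and 75.8 in NC (−0.79, SE 0.0954, limma adjusted p = 0.00255). AKR1C2 (−0.77), AKR1C1 (−0.71), ME1 (−0.66) and TKT (−0.65) were lower. These 5 genes shared an order, lowest in NC and highest in si1. The medians over all 28 targets were 0.20 for si1 minus NC and 0.22 for si2 minus NC. The aldo-keto reductase genes are near copies of each other, and how reads shared among them were counted is not given in the sources used here. The 2 members that were higher in si2 were SLC7A11, which is also an ATF4 target, and NQO1, a quinone reductase (0.34).

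Interferon-stimulated genes were divided, with 6 of 39 higher in si2 and 11 lower. IFITM3, which blocks the entry of viruses, was at 154.4 and 153.9 FPKM in si1, 70.9 and 65.7 in si2, and 73.0 and 73.8 in NC (−1.16), so si1 alone was raised over NC. IFITM2 (−1.51), OASL (−1.46), IFI6 (−0.91) and GBP2 (−0.80) were lower, and SAMD9L was higher (0.74). IFITM2 and IFITM3 are similar in sequence. Among 19 genes of MHC class I presentation, 6 were higher and 5 lower. The heavy chain genes HLA-C (−1.82) and HLA-B (−0.77) were lower, while B2M, the light chain, at 103 and 117 FPKM in si1 and 149 and 135 in si2 (0.37), TAP1 (0.50) and ERAP1 (0.61) were higher. Reads of the HLA genes may be shared among them.

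Autophagy, which the series title names, differed in single genes. Of 38 core autophagy genes, 4 were higher in si2 and 9 lower (34.2% called, median −0.03). ATG2A, a lipid transfer protein, was at 9.85 and 8.08 FPKM in si1, 3.02 and 2.90 in si2, and 6.93 and 7.92 in NC (−1.33, limma adjusted p = 9.24e-04). ULK1, the kinase that starts autophagy, was at 25.2 and 20.8 in si1, 11.4 and 12.3 in si2, and 16.8 and 16.2 in NC (−0.90), and WIPI2 was lower by 0.86. Of 20 selective autophagy receptors, 2 were higher and 6 lower. SQSTM1, which encodes p62, was at 199 and 190.1 FPKM in si1, 121 and 125 in si2, and 166 and 171 in NC (−0.66), and CALCOCO2, which encodes NDP52, at 6.14 and 5.87 in si1, 15.1 and 13.5 in si2, and 14.1 and 12.1 in NC (1.12). Lysosomal genes were higher in 11 of 53 and lower in 12, with CTSB, a protease, higher (0.73), and LAMP1 (−1.80) and TPP1 (−1.10) lower. Of 39 Rab GTPases, 10 were higher and 7 lower, and RAB1B, which acts between the endoplasmic reticulum and the Golgi, had the largest difference (−0.95).

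Of 24 p53 targets, 9 were higher in si2 and 7 lower (median −0.04). SESN2, an inhibitor of mTORC1, was at 10.4 and 9.17 FPKM in si1 and 18.9 and 18.8 in si2 (0.89), and TNFRSF10B, a TRAIL receptor, was higher by 0.72. CCNG1, which encodes cyclin G1, was at 36.0 and 45.3 in si1, 14.6 and 11.3 in si2, and 36.2 and 32.8 in NC (−1.58). Among the BCL2 family, PMAIP1, which encodes NOXA, was at 38.1 and 48.2 FPKM in si1 and 101 and 91.4 in si2 (1.15), and BOK (−0.92) and BMF (−0.73) were lower. In the RNA interference list, 1 of 19 was higher and 5 were lower. DICER1, the nuclease that cuts microRNA precursors, was at 13.3 and 12.9 FPKM in si1, 7.49 and 7.34 in si2, and 12.8 in both NC libraries (−0.74), and SND1 was lower by 0.75.

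**Figure D4:**
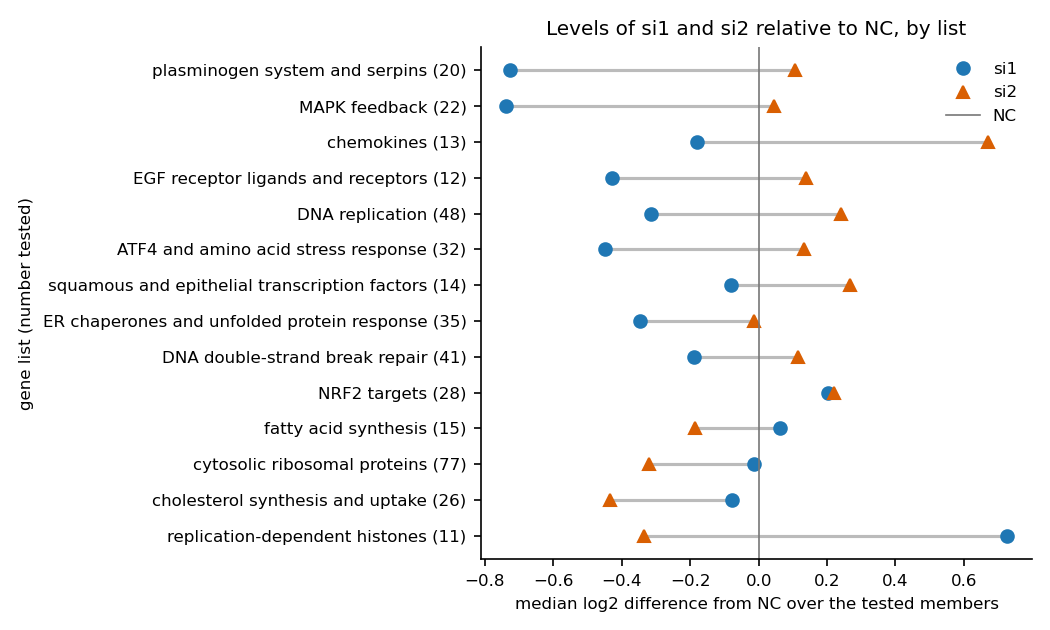
Median over the tested members of the log2 difference from NC, for si1 (blue circles) and si2 (orange triangles), in lists with at least 10 tested members, at least 40% of them called and a median si2 minus si1 of at least 0.25 in size. Both groups are set against the same 2 NC libraries; in the plasminogen and MAPK lists si1 lies at −0.73 and −0.74 with si2 near NC, and for chemokines si2 lies at 0.67.

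The difference between the groups moved with the base composition of transcripts. Across 12323 genes, the correlation of the log2 fold change with transcript GC content was −0.321, a description over genes that share the same 4 libraries. In the lowest decile of GC content (23.1% to 38.3%), 25.8% of genes were called higher in si2 and 5.59% lower, with a median of 0.17. In the highest decile (61.2% to 86.4%), 5.92% were called higher and 39% lower, with a median of −0.28. Relative to the NC mean, the highest decile had medians of −0.22 and −0.15 for si2 replicates 1 and 2, of 0.16 and 0.06 for those of si1 and of −0.03 and 0.03 for those of NC. In this decile both si2 libraries were thus below NC and both si1 libraries above it, and si1 replicate 1 lay as far from NC as si2 replicate 2. In the lowest decile the medians were 0.17 and 0.14 for si2 replicates 1 and 2. Those of si1 were −0.08 and 0.04 there, on both sides of the NC mean. When each decile was centred on its own median, an alternative chosen after seeing the data, 3786 genes were called, 3057 of them among the 4102. The replication list then had 34 higher and 1 lower, the plasminogen list 16 and 0, the MAPK feedback list 16 and 0, the histones 0 and 10, and the ribosomal proteins 2 and 48. The chemokines had 7 higher, the interferon-stimulated genes 2 higher and 12 lower, and the splicing factors 3 and 12. Whether base composition plays a part in single genes was not tested.

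**Figure D5:**
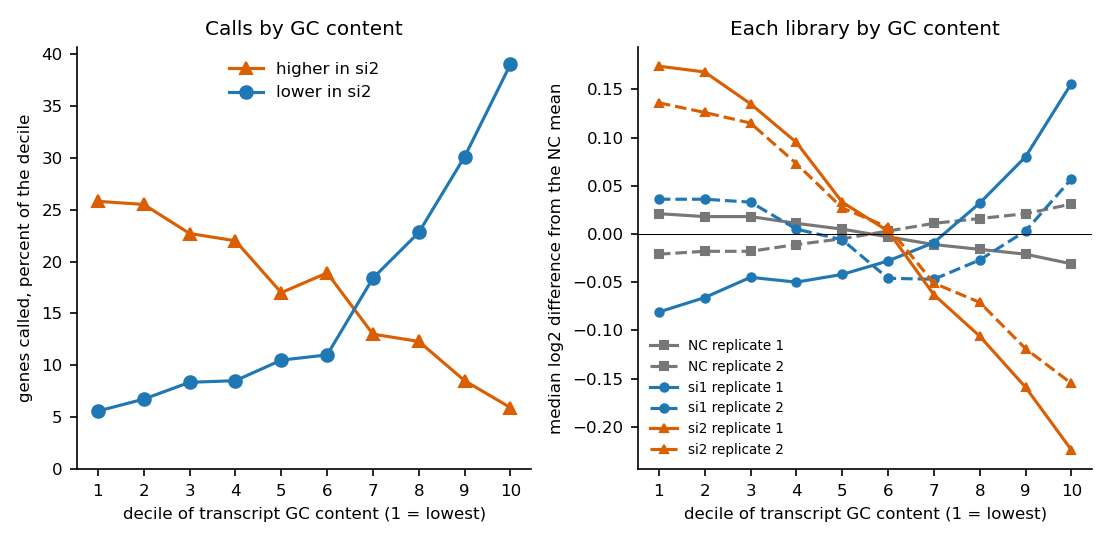
Left, percent of genes called higher (orange) and lower (blue) in si2 in each decile of transcript GC content. Right, median log2 difference of each library from the NC mean; the si2 libraries fall from 0.17 and 0.14 in the lowest decile to −0.22 and −0.15 in the highest, while the NC libraries stay within 0.03 of 0.

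Short sequences were ranked in the 3' UTR, the part of a transcript after its stop codon to which microRNAs and RNA-binding proteins pair. The ranking used 10706 of the 10738 protein-coding genes tested and 13749 sequences of 7 bases with at least 200 carriers. The log2 fold changes were first regressed on UTR length and GC content. The weight of a sequence was the mean of what remained over its carriers, times the square root of their number. The sequences with the lowest weights were TGTCTGC and GTCTGCA (−6.645 and −6.457), which overlap by 6 bases and join to TGTCTGCA. TGTCTGC is carried by 1710 genes (16% of all 3' UTRs), of which 27.6% were lower in si2 and 11.9% higher, against 15% and 19.4% of the genes without it. GTCTGCA is carried by 1284 genes (12%), of which 29.1% were lower and 11.4% higher. The joined sequence is carried by 592 genes (5.53%), of which 31.4% were lower and 9.46% higher. Called or not, 5.91% of these genes were at least 2-fold lower, against 1.29% of the others. Its carriers had medians of −0.03 for si1 minus NC and −0.17 for si2 minus NC. The sequences with the highest weights were ACTCTCT and CTCTCTA (2.835 and 2.689), which join to ACTCTCTA. Their weights were smaller in size than those of the lowest pair, and the next sequence, TCTCTCT, had 2.519. ACTCTCT is carried by 1136 genes (10.6%), of which 27.1% were higher and 9.42% lower. CTCTCTA is carried by 1070 genes (9.99%), of which 29.3% were higher and 9.35% lower. The joined sequence ACTCTCTA is carried by 184 genes (1.72%), of which 32.6% were higher in si2 and 3.26% lower. Its carriers had medians of −0.14 for si1 minus NC and 0.08 for si2 minus NC.

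The sites below are from the 6 carriers of each joined sequence with the largest differences in its direction (5 of the 6 for the first), hg38, read from the transcripts of GENCODE release 29, each as 24 bases of the transcript strand with the joined sequence in capitals. They are shown because the capitals are what the carriers share. For TGTCTGCA, whose carriers were lower in si2:
ARHGDIA, chr17:81868305-81868328, minus strand: actccctgTGTCTGCAtgagcatg
SMIM14, chr4:39550576-39550599, minus strand: cttaaaaaTGTCTGCAtgggctgg
LAMP1, chr13:113323182-113323205, plus strand: gtctctaaTGTCTGCAgctcaagg
PUDP, chrX:7048999-7049022, minus strand: tgaatataTGTCTGCActtttaat
TMEM109, chr11:60923029-60923052, plus strand: cgcctcctTGTCTGCAcaactgca
For ACTCTCTA, whose carriers were higher in si2:
SKP2, chr5:36182869-36182892, plus strand: attaatccACTCTCTAttcttgaa
ADD3, chr10:110135232-110135255, plus strand: gttgcttaACTCTCTAttggaaga
MUT, chr6:49431502-49431525, minus strand: ccctaaaaACTCTCTAtactctct
GINS2, chr16:85677652-85677675, minus strand: cagctctgACTCTCTAggtttttg
PTPRR, chr12:70638489-70638512, minus strand: atgtatttACTCTCTAttattggg
SAMD8, chr10:75180981-75181004, plus strand: tgttttaaACTCTCTAatttaata

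In the first set, the bases outside the capitals differ from gene to gene. PUDP, a pseudouridine phosphatase, was at 5.17 and 6.58 FPKM in si1, 1.06 and 0.981 in si2, and 5.06 and 5.09 in NC (−1.76). TMEM109, a membrane protein, was at 19.5 and 20.5 in si1, 5.86 and 5.76 in si2, and 29.9 and 27.4 in NC (−1.62), and LAMP1 at 54.2 and 51.1 in si1, 13.7 and 15.2 in si2, and 54.6 and 56.3 in NC. In these 3 genes both si2 libraries were far below NC. The si1 libraries were above both NC libraries for PUDP and below both for TMEM109 and LAMP1. In each gene of the second set the si1 mean was below the NC mean and the si2 mean above it. ADD3, an adducin of the membrane skeleton, was at 14.6 and 16.2 FPKM in si1, 47.4 and 45.8 in si2, and 29.6 and 29.4 in NC (1.54), and SAMD8, an enzyme of sphingolipid synthesis, at 3.12 and 2.52 in si1, 7.03 and 7.24 in si2, and 6.33 and 6.77 in NC (1.09). MUT, a mitochondrial mutase of propionate metabolism, differed by 1.29 and PTPRR, a phosphatase that acts on ERK, by 1.13.

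Of the 14 lowest genes, 8 carry TGTCTGC or GTCTGCA (among them ARHGDIA, FSCN1, HLA-C, LAMP1, SAMD11, SMIM14 and UQCRQ), against 21.2% of all genes with a 3' UTR, and of the 14 highest 1 does. Of the 14 highest, 3 carry ACTCTCT or CTCTCTA (CALM3, F2RL1 and TCN1), against 17.2% of all, and so do 2 of the 14 lowest, DIO2 and ZBED6CL. These sequences were picked for this pattern, so the counts describe it and do not test it. Carriers have longer 3' UTRs, with a median of 2849 bases for TGTCTGC against 1200 for the rest. For ACTCTCT the medians were 3183 and 1240 bases. When genes were divided into 3 equal classes of UTR GC content, in the lowest class, 19.0% of TGTCTGC carriers were lower in si2 against 7.16% of the others, and in the highest class 41.6% against 28.6%. For ACTCTCT, 38.3% of carriers in the lowest class were higher against 23.7%, and 17.9% in the highest class against 8.36%. Of 2370 mature human microRNAs in the RefSeq table (GRCh38.p14), 1 has the reverse complement of TGTCTGC at its bases 2 to 8, hsa-miR-3166, and 1 that of GTCTGCA, hsa-miR-1273h-3p. There were 0 for ACTCTCT and 0 for CTCTCTA. A match of letters is a description and not a site of action, and the part of these sequences in the differences was not tested.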

How the data were processed

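RNA sequencing values of SK-MES-1 cells were used as deposited. The authors deposited FPKM for 58735 genes, and the submitters' processing notes name hg38. Neither the aligner nor the counter is given in the sources used here. All 58735 gene positions match GENCODE release 29, which supplied coordinates, biotypes, transcript GC content and 3' UTRs. FPKM times gene length, divided by what 1 read is worth in each library, gave whole reads within 0.001 for 100% of values. These reads serve for depth, and the limit for a count of 0 is 3 reads.

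Testing was limited to genes that averaged 1 FPKM or more across si1 and si2 and was run on log2(FPKM + 1) with limma 3.58.1 in R 4.3.3 (trended variances, 2 residual and 4.16 prior degrees of freedom, two-sided, Benjamini-Hochberg adjustment). NC entered no test. On simulated reads of this comparison, 71.7% of 60 genes changed 1.5-fold, 85.1% of 74 changed 2-fold and 98.5% of 66 changed 4-fold were called, with 16 of 12126 unchanged genes. The simulation gave all genes the same dispersion (0.00142) and changed far fewer genes than were called in the data. Its shares may therefore not carry over to the data.

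The text names KRT6A, RAB39B, the 14 highest and 14 lowest called protein-coding genes whose libraries did not overlap, from each of 47 lists up to 6 tested members with the largest difference and the 2 most abundant, marker genes, and up to 8 carriers of a printed sequence. Chosen after their values were seen were B2M, CALM2, CXCL2, CXCL6, ERBB2, HMGCS1, ID1, ID3, MTHFD2L, MYC, NQO1, NRAS, PDIA6, PF4, SHMT2, TEAD2, TEAD4, TK1 and TKT. Some genes that the rule names are not reported here. Members and lists were chosen with earlier results of these data known. Alternatives were another pseudocount, filter, scaling, variance prior, set of libraries or block, limma's voom on the reads, each library left out, and centring by GC content.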

Additional observations from a re-analysis of the deposited data

How the results depend on the processing

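The 4102 calls of si2 against si1 became 4136 with a pseudocount of 0.1, 4132 with median-of-ratios scaling, 4747 with NC in the fit, 3666 with 1 prior variance and 5170 with voom on the recovered reads. Without a filter on low values 1696 genes were called, 900 higher and 796 lower in si2, and with a filter at 5 FPKM 3480 of 7109 genes tested. Leaving out 1 library at a time gave 2316 to 3409 calls, 1178 to 1825 higher and 1138 to 1584 lower. The replicate block gave 4059 calls, but the replicate numbers pair the libraries in name only (correlation of the replicate 1 deviations −0.053). Centring by GC content, which was chosen after seeing the data, gave 3786 calls, 1964 higher and 1822 lower, and 4087 of the 4102 genes kept their direction. The other settings give the same direction mostly by construction, since most leave the fold change as it is and the libraries of called genes did not overlap. Of 289 genes that could be named, 56 fell short of the threshold without a filter and 32 without replicate 1 of si2. With 2 libraries a group, smaller differences were missed more often, and KRT6A lay below what this depth can show.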

Other observations

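The following genes lie outside the lists and were chosen after their values were seen. TRBC2, which encodes a constant region of the T cell receptor beta chain (chr7:142801041-142802748), was at 22.4 and 23.0 FPKM in si1, 96.0 and 94.8 in si2, and 61.0 and 68.4 in NC (2.02, SE 0.0673, limma adjusted p = 1.31e-04). The neighbouring TRBC1 was at 1.77 and 1.09 FPKM in si1, 4.83 and 4.61 in si2, and 2.83 and 2.47 in NC (1.25). CD3E, the leukocyte marker that pairs with the receptor in T cells, had 0 reads in every library.

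The complement proteases C1R and C1S, neighbours on chromosome 12, were lower in si2. C1R was at 16.4 and 16.02 FPKM in si1, 4.78 and 4.597 in si2, and 5.73 and 6.61 in NC (−1.60, SE 0.0803), and C1S at 22.3 and 23.8 in si1, 7.26 and 7.81 in si2, and 8.13 and 8.94 in NC (−1.496, SE 0.084). HMGA2, an architectural chromatin protein, was at 11.5 and 11.96 FPKM in si1, 41.2 and 37.2 in si2, and 30.3 and 29.03 in NC (1.66). DDOST, a subunit of the oligosaccharyltransferase, was at 60.4 and 59.9 FPKM in si1, 185 in both si2 libraries, and 158 and 162 in NC (1.60). In C1R and C1S si1 was the group away from NC, and in DDOST and HMGA2 si1 was below NC with si2 above it.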
